A study of Mus musculus with 2 samples.

Results

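The genes described here are 8 genes that mark the eosinophil, basophil and mast cell lineages: Prg2, Epx, Il5ra, Cpa3, Mcpt8, Ms4a2, Fcer1a and Gata2. They were taken by symbol from 24421 gene symbols, and all 8 had a value in both libraries. RNA had been sequenced from granulocyte-monocyte progenitors (GMPs), bone marrow cells sorted by flow cytometry. There was 1 library from female non-tumor-bearing mice (NTB-GMP) and 1 library from female mice that carried 4T1, a mouse mammary carcinoma cell line, implanted orthotopically (4T1-GMP). Both groups are labelled as F1 semi-syngeneic (H-2b/d) mice, while the study's methods name BALB/c and C57BL/6 animals, and neither age nor the number of mice behind a library is in the labels. The comparison asks how gene expression in these progenitors differs when a tumor is present. With 1 library per group there was no test, and differences between mice, library preparations and the tumor cannot be told apart.

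Eosinophils, basophils and mast cells arise from bone marrow progenitors, and part of the cells in the GMP gate are known to be primed toward them. Eosinophils respond to IL-5 and pack their granules with cationic proteins. Basophils and mast cells carry the high-affinity IgE receptor FcεRI, whose cross-linking releases stored proteases and histamine. GATA2 is a transcription factor of early progenitors that is needed for mast cells and basophils and also acts in eosinophils, together with GATA1.

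Because Gata2 encodes a GATA factor, the stretches in front of the genes, its own included, were searched for the GATA motif, taken as AGATA or TGATA followed by A or G, on either strand. RefSeq promoter windows of GRCm38.p6 (250 bases before to 50 after the gene start) were at hand for 7 of the 8 genes, without Prg2. A match was found for 4 of these 7 genes (57.1%), against 33.0% of 27025 genes with such a window. These 4 are shown because they are the windows that hold the motif. The 250 bases before the gene start are printed 5′ to 3′ on the gene's strand, with the motif in capitals (TTATCT is AGATAA on the opposite strand).
Cpa3, chr3:20242182-20242431, minus strand: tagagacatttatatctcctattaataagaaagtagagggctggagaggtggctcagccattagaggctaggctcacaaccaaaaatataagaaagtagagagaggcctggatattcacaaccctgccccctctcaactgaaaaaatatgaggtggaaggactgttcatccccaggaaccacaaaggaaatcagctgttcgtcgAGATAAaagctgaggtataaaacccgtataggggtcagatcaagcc
Il5ra, chr6:106749038-106749287, minus strand: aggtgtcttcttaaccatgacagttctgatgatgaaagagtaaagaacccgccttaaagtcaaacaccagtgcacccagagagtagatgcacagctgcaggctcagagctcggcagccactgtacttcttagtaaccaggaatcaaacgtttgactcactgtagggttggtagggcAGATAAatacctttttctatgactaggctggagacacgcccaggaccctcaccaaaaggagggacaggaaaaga
Ms4a2, chr19:11623720-11623969, minus strand: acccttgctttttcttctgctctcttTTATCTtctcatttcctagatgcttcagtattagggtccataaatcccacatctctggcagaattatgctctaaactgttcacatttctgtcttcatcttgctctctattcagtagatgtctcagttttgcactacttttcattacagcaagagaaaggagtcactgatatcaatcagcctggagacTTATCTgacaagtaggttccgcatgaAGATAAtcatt
Fcer1a, chr1:173227230-173227479, minus strand: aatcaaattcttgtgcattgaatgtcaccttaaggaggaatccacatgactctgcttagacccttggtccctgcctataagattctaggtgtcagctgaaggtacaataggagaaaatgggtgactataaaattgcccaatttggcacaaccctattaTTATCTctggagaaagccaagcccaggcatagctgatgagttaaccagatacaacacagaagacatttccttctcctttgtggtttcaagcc
The motif began 46 bases before the start of Cpa3, 74 bases before that of Il5ra and 92 bases before that of Fcer1a. Ms4a2 held 3 matches, at 224, 37 and 11 bases before its start. These distances are from the RefSeq start, which can differ from the GENCODE M21 coordinates given below. For Fcer1a the printed stretch runs from 173227230, while GENCODE M21 has the gene begin at 173227214 on the minus strand. The Mcpt8 stretch runs from 56085198, inside the gene as GENCODE M21 has it, to 56085273. The windows of Epx, Mcpt8 and Gata2 held none of these letters. A match describes the sequence and does not show binding.

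The authors deposited RPKM, read counts scaled to gene length and to library size, which can be compared between genes because length is divided out. Whole reads were recovered from these values, 11070974 in NTB-GMP and 31420115 in 4T1-GMP. The width of a counting interval follows a gene's own reads. The GMP label was checked against defining genes. Mpo and Elane, which encode granule enzymes of GMPs, stood at 5163 and 1853 RPKM in NTB-GMP and at 5625 and 2935 RPKM in 4T1-GMP, and Kit was present in both (78.5 and 49.1 RPKM). Cd34, a progenitor surface gene, was also present in both but lower in 4T1-GMP (154 and 59.4 RPKM). Among the B and T cell genes Cd79a, Pax5, Cd3e and Cd3g, the highest value in either library was 0.244 RPKM, for Pax5 in NTB-GMP. These genes are a part of a longer lymphoid list and were named after their values were seen. Nkg7 of that list, which is also expressed outside lymphoid cells, had 190 and 337 RPKM.

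All 8 genes were lower in 4T1-GMP than in NTB-GMP, from 1.31-fold for Fcer1a to 6.08-fold for Il5ra. Ratios are given as log2((4T1-GMP RPKM + 0.1)/(NTB-GMP RPKM + 0.1)), which understates the difference of low genes. Fold differences are ratios of the RPKM themselves, each with a 95% Clopper-Pearson interval on the reads, and these intervals hold counting error alone. They treat each read as independent. PCR reads without molecular identifiers are not independent molecules, so the intervals can be too narrow even for counting error. Genes whose mean over both libraries reached 1 RPKM are called expressed here, 10378 in all, and the 8 genes all met that minimum. The median log2 ratio of the 8 genes was -1.56, against 0.05 over the expressed genes. Every one of the 8 intervals lay wholly on the lower side, as did those of 29.7% of the expressed genes, and 45.3% of the expressed genes were lower by any amount. A difference of at least 2-fold stood in for a test. It was passed in the lower direction by 6 of the 8 genes and by 511 of the expressed genes (4.92%), while none of the 8 was at least 2-fold higher, against 337 of the expressed genes (3.25%). Some genes reached the minimum mean through NTB-GMP alone and so could only be lower in 4T1-GMP. They make up 182 of the 511 lower genes and 1 of the 6, Il5ra. The ribosomal RNA precursor Rn45s took 15.6% of the recovered reads in NTB-GMP and 6.66% in 4T1-GMP. Without them in the library sizes, every log2 ratio of RPKM shifts by -0.15. The split over expressed genes then becomes 718 lower (6.83%) and 273 higher (2.6%) of 10519. In bulk RNA, fewer cells of a type and less RNA per cell cannot be told apart.

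**Figure D1:**
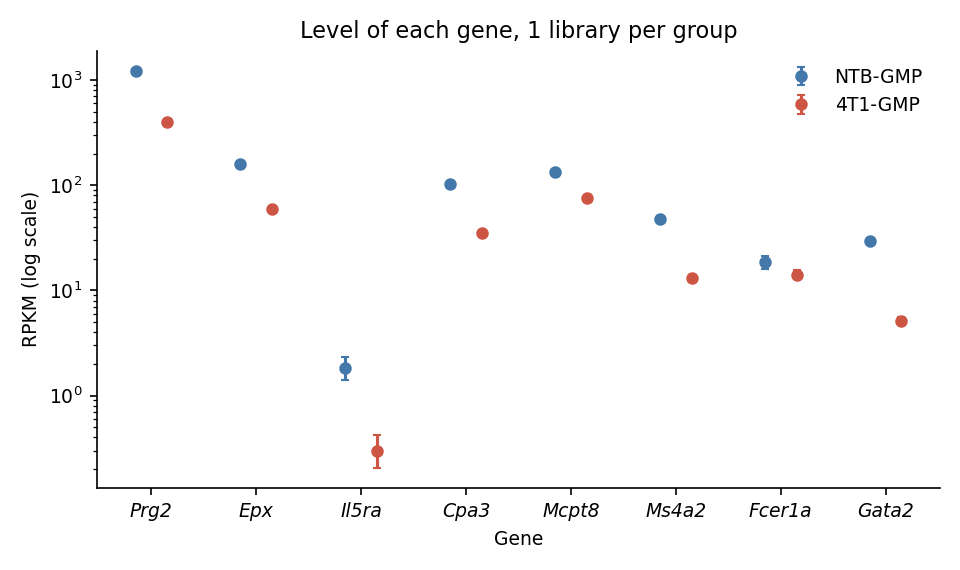
RPKM on a log axis for each of the 8 genes in NTB-GMP (blue) and 4T1-GMP (red), 1 library per group, with exact 95% Poisson intervals of the reads as bars. The 4T1-GMP point lies under the NTB-GMP point for every gene, closest together for Fcer1a (18.6 and 14.2 RPKM) and farthest apart for Il5ra (1.82 and 0.300 RPKM).

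Among the eosinophil genes, Prg2 encodes major basic protein, the main protein of the eosinophil granule core (chromosome 2, 84980461 to 84983632, GENCODE M21 on GRCm38). It stood at 1208 RPKM in NTB-GMP, from 10308 reads, against 403 RPKM in 4T1-GMP, from 10130 reads, or 3.0-fold lower (interval 2.92 to 3.08). Prg2 was the 34th highest of all symbols in NTB-GMP and the 151st in 4T1-GMP, so it remained an abundant transcript of both libraries. Epx encodes eosinophil peroxidase (chromosome 11, 87864000 to 87875536). It had 160 RPKM in NTB-GMP, from 4384 reads, against 59.1 RPKM in 4T1-GMP, from 4772 reads, a difference of 2.71-fold (interval 2.60 to 2.82). The ratio of Prg2 to Epx was 7.55 in NTB-GMP and 6.82 in 4T1-GMP, a small change while both were lower. It was beyond counting error if reads are taken as independent, since the intervals of their log2 ratios (-1.62 to -1.55 and -1.50 to -1.38) did not overlap.

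Il5ra encodes the alpha chain of the IL-5 receptor, which gives the receptor its specificity for IL-5 (chromosome 6, 106710357 to 106749037). It was the lowest of the 8 genes, with 1.82 RPKM in NTB-GMP, from 66 reads, against 0.300 RPKM in 4T1-GMP, from 32 reads, or 6.08-fold lower. The counting interval was wide, from 3.93 to 9.59-fold. Its mean of 1.06 RPKM passed the minimum only through NTB-GMP, and its 4T1-GMP level alone would not have. The other chains of this receptor family did not share its direction throughout. Csf2rb, the common beta chain that pairs with the IL-5, IL-3 and GM-CSF receptor alpha chains, was at 26.0 RPKM in NTB-GMP against 46.7 RPKM in 4T1-GMP (log2 ratio 0.85), and Csf2ra, the GM-CSF receptor alpha chain, had 24.9 and 33.2 RPKM (0.42). By contrast, Il3ra, the IL-3 receptor alpha chain, had 12.3 and 6.19 RPKM (-0.98), and Csf2rb2, a mouse beta chain that serves IL-3, had 6.45 and 4.63 RPKM (-0.47). Csf2rb and Csf2rb2 are close copies, so reads may have been split between them. Csf2rb was 14.2 times the level of Il5ra in NTB-GMP and 156 times in 4T1-GMP.

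Of the granule proteases, Cpa3 encodes carboxypeptidase A3, which is stored in the granules of mast cells and is also expressed in basophils and their progenitors (chromosome 3, 20215620 to 20242181). It had 103 RPKM in NTB-GMP, from 1519 reads, against 35.1 RPKM in 4T1-GMP, from 1533 reads, or 2.92-fold lower (interval 2.72 to 3.14). Mcpt8 encodes a serine protease of mouse basophils (chromosome 14, 56082166 to 56085273). It had 135 RPKM in NTB-GMP, from 1154 reads, against 75.6 RPKM in 4T1-GMP, from 1902 reads, a smaller difference of 1.79-fold (interval 1.66 to 1.93) that did not reach 2-fold, although it did after quantile normalization (log2 ratio -1.10). Prss34, another basophil protease, was close to Mcpt8 in NTB-GMP (121 RPKM) and lower in 4T1-GMP (45.3 RPKM, log2 ratio -1.42). The ratio of Mcpt8 to Prss34 was therefore 1.11 in NTB-GMP and 1.67 in 4T1-GMP.

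The IgE receptor FcεRI consists of the alpha chain that binds IgE (Fcer1a), the beta chain that amplifies the signal (Ms4a2) and the gamma chain that transmits it (Fcer1g), the last shared with other Fc receptors. Ms4a2 (chromosome 19, 11615523 to 11623719) had 47.9 RPKM in NTB-GMP, from 1373 reads, against 13.1 RPKM in 4T1-GMP, from 1110 reads, or 3.65-fold lower (interval 3.37 to 3.95). Fcer1a (chromosome 1, 173221284 to 173227214) had 18.6 RPKM in NTB-GMP, from 194 reads, against 14.2 RPKM in 4T1-GMP, from 436 reads, or 1.31-fold lower (interval 1.10 to 1.56), and was the least different of the 8 genes. Its log2 ratio of -0.39 was above that of 18.4% of the expressed genes. Fcer1g had 22.2 RPKM in NTB-GMP, from 149 reads, against 13.5 RPKM in 4T1-GMP, from 266 reads, a log2 ratio of -0.72. Thus the beta chain was 2.58 times the level of the alpha chain in NTB-GMP and 0.928 times in 4T1-GMP, where the transcripts of the 3 chains were at similar levels.

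**Figure D2:**
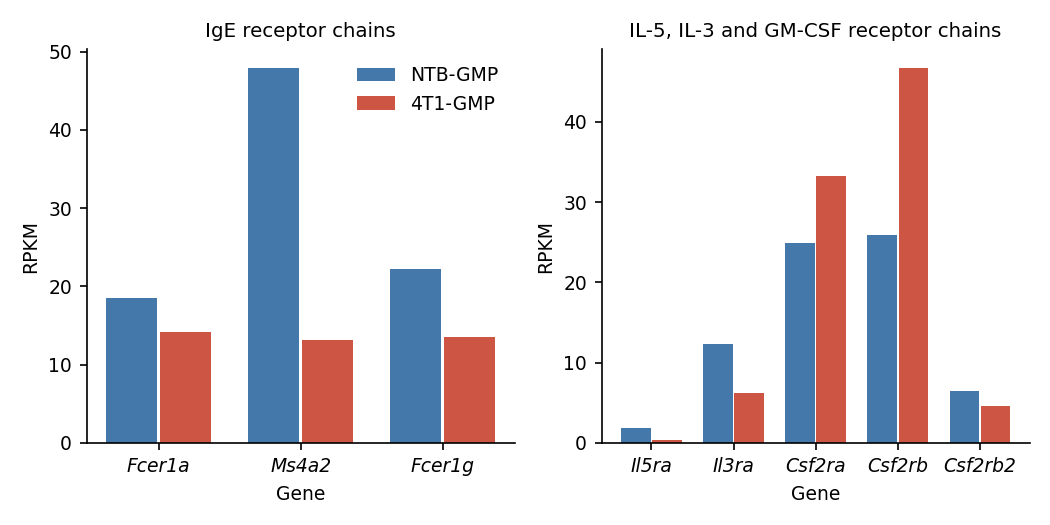
RPKM of the IgE receptor chains (left) and of the IL-5, IL-3 and GM-CSF receptor chains (right) in NTB-GMP (blue) and 4T1-GMP (red), 1 library per bar. Ms4a2 exceeds Fcer1a and Fcer1g in NTB-GMP and is level with them in 4T1-GMP (13.1, 14.2 and 13.5 RPKM), while Csf2rb is higher in 4T1-GMP (46.7 against 26.0 RPKM) and Il5ra is near the axis in both.

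Gata2, on chromosome 6 (88193891 to 88207032), had 29.5 RPKM in NTB-GMP, from 975 reads, against 5.14 RPKM in 4T1-GMP, from 500 reads. This was 5.75-fold lower (interval 5.16 to 6.42), and 0.646% of the expressed genes had a lower log2 ratio. Gata1, which encodes the related factor of erythroid, megakaryocyte, mast cell and eosinophil cells, had 4.23 and 0.806 RPKM (log2 ratio -2.26). Zfpm1, which encodes FOG1, a partner of GATA factors, had 5.63 and 0.886 RPKM (-2.54). The ratio of Gata2 to Gata1 was 6.97 in NTB-GMP and 6.37 in 4T1-GMP. Other factors of the same list differed in the opposite direction, among them Xbp1 (59.8 and 154 RPKM, log2 ratio 1.36), a factor of the secretory pathway that eosinophil progenitors require, Cebpb (5.76 and 11.9 RPKM, 1.04), and Gfi1 (45.02 and 82.7 RPKM, 0.88), a repressor in granulocyte development. Cebpe, which drives the late granule genes of neutrophils and eosinophils, had 48.5 and 70.4 RPKM (0.54). Of the 20 expressed lineage factors, Gata2 included, 7 were at least 2-fold lower and 2 at least 2-fold higher, with a median log2 ratio of -0.40. Gata1 and Zfpm1, 2 of the 7, reached the minimum through NTB-GMP alone. The lowest ratio was that of Irf8, a factor of monocytes and dendritic cells (32.0 and 4.45 RPKM, log2 ratio -2.82).

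**Figure D3:**
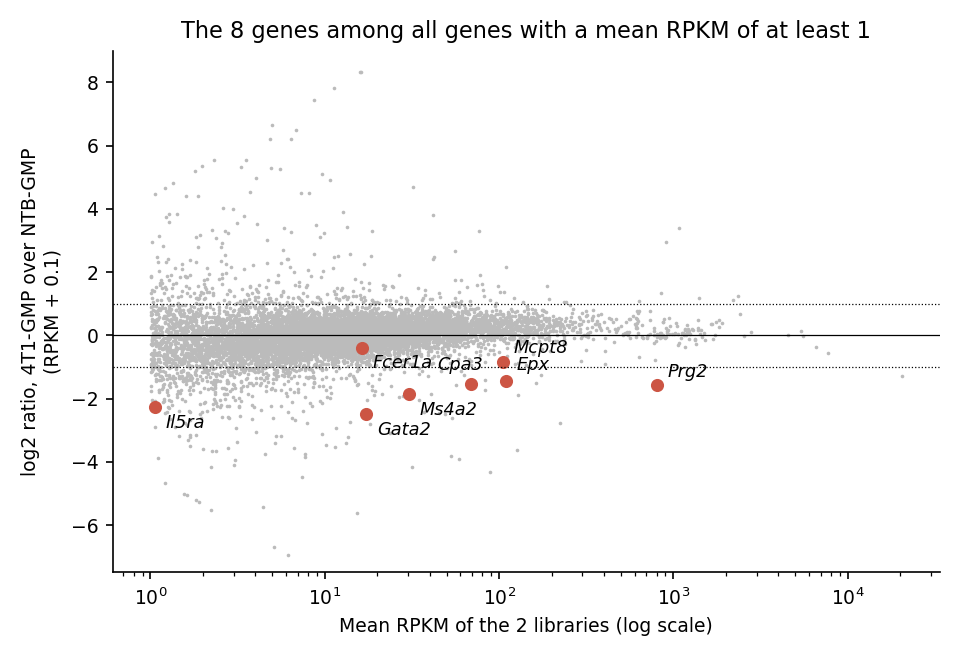
Log2 ratio of 4T1-GMP over NTB-GMP (RPKM + 0.1) against mean RPKM on a log axis, with 1 point for each of the 10378 expressed genes. The 8 genes are in red and dotted lines mark 2-fold; 6 of the 8 lie under the lower line, and Mcpt8 and Fcer1a lie between the lower line and 0.

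The order of the levels differed slightly between the libraries. In NTB-GMP it was Prg2, Epx, Mcpt8, Cpa3, Ms4a2, Gata2, Fcer1a and Il5ra, and the Poisson intervals of neighbors in this order did not overlap. In 4T1-GMP, Mcpt8 stood above Epx and Fcer1a above Ms4a2 and Gata2. Fcer1a (interval 12.9 to 15.6 RPKM) and Ms4a2 (12.4 to 13.9 RPKM) did not differ beyond counting error there. In size of difference, Prg2, Epx and Cpa3 lay close together (2.71 to 3.0-fold lower), the ratios of Mcpt8 and Fcer1a were nearer to 0, and those of Ms4a2, Gata2 and Il5ra were farther from it. The interval of Il5ra overlapped those of Ms4a2 and of Gata2, so its place beside them is not settled by the reads. With the pseudocount, Gata2 (log2 ratio -2.50) was lower than Il5ra (-2.27). Together the 8 genes took 0.180% of the recovered reads in NTB-GMP and 0.0650% in 4T1-GMP.

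Further genes of the same lineages were taken from lists. Of 10 expressed basophil genes, 6 were at least 2-fold lower in 4T1-GMP and 1 was at least 2-fold higher, with a median log2 ratio of -1.18. The lowest ratios were those of Gzmb, the protease granzyme B (17.3 and 1.91 RPKM, log2 ratio -3.12), Itgb7, an integrin beta chain found on mast cell and basophil progenitors (9.33 and 1.88 RPKM, -2.25), and Slc18a2, a transporter that loads amines into vesicles (10.4 and 2.95 RPKM, -1.79). Hdc, the enzyme that makes histamine, had 113 and 74.7 RPKM (-0.60). Ifitm1, a membrane protein with a broad expression, had 33.7 and 96.6 RPKM (1.52) and was the 1 expressed gene at least 2-fold higher. Ptger3, a prostaglandin E2 receptor, had 2.43 and 3.19 RPKM (0.38). Below the minimum mean of 1 RPKM, Cd200r3 of this list had 0.312 and 1.01 RPKM, from 7 and 67 reads (1.43). Itga2, also below it, had 0.373 and 0.118 RPKM, from 32 and 30 reads (-1.11).

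In the mast cell list, 8 of 15 genes were listed at 0 in both libraries, including the protease genes Mcpt1, Mcpt2, Mcpt4 and Mcpt9 and the tryptase gene Tpsab1 of mature mast cells. Only 4 genes of this list were expressed at a mean of 1 RPKM or more, of which 2 were at least 2-fold lower. These were Il1rl1, the IL-33 receptor (4.36 and 1.14 RPKM, log2 ratio -1.85), and Cma1, a mast cell chymase (2.28 and 0.557 RPKM, -1.86), which reached the minimum through NTB-GMP alone. The other 2 were Kit, the receptor for stem cell factor (-0.67), and Mitf, a mast cell and melanocyte factor (-0.20).

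Of 9 further expressed eosinophil genes, 5 were at least 2-fold lower and none at least 2-fold higher, with a median log2 ratio of -1.56. The lower genes were Prg3 and 4 of the Ear genes, which encode eosinophil-associated ribonucleases. Ear2 had 10.2 and 1.02 RPKM (log2 ratio -3.19), Ear1 had 24.2 and 3.504 RPKM (-2.76) and Ear6 had 22.8 and 7.67 RPKM (-1.56). Ear10 had 13 reads in NTB-GMP and 3 in 4T1-GMP, within the floor of 3 reads taken as not detected, and its log2 ratio without a pseudocount was -3.68, with a wide interval from -6.13 to -1.81. It reached the minimum through NTB-GMP alone. The Ear genes are near-identical copies of each other, so their separate values are uncertain. Csf2rb (0.85) and Cebpe (0.54), which are on the same list, were higher in 4T1-GMP. Siglecf, which encodes a surface lectin of mature eosinophils, had 11.3 and 9.12 RPKM (-0.30). Ccr3, the eotaxin receptor of mature eosinophils, had 2 reads in NTB-GMP and 1 read in 4T1-GMP, both within that floor.

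The lists of FcεRI signaling and of the cytokine receptor pathway, which also hold receptor chains, had median ratios near 0. Of 14 genes of FcεRI signaling, 3 were at least 2-fold lower, against 4.92% of the expressed genes. None was at least 2-fold higher, and the median log2 ratio was -0.06. The 3 were Fyn, a Src family kinase (6.08 and 1.54 RPKM, log2 ratio -1.92), and the adaptors Lat (2.15 and 0.648 RPKM, -1.59, past the minimum through NTB-GMP alone) and Lat2 (10.3 and 3.55 RPKM, -1.52). Lyn, the Src family kinase that acts first at the receptor, had 20.6 and 28.1 RPKM (0.44), Vav1 and Lcp2, signaling proteins downstream of it, had log2 ratios of 0.10 and 0.09, and the kinase Syk had 44.3 and 44.4 RPKM (0.00). Of 10 genes of the IL-3, IL-5 and GM-CSF receptor pathway, none passed 2-fold in either direction, and the median log2 ratio was -0.17. The target gene Pim1 had 35.5 and 68.0 RPKM (0.94), the survival gene Bcl2l1 had 3.60 and 4.92 RPKM (0.44), and Stat5b had 23.8 and 17.5 RPKM (-0.45).

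**Figure D4:**
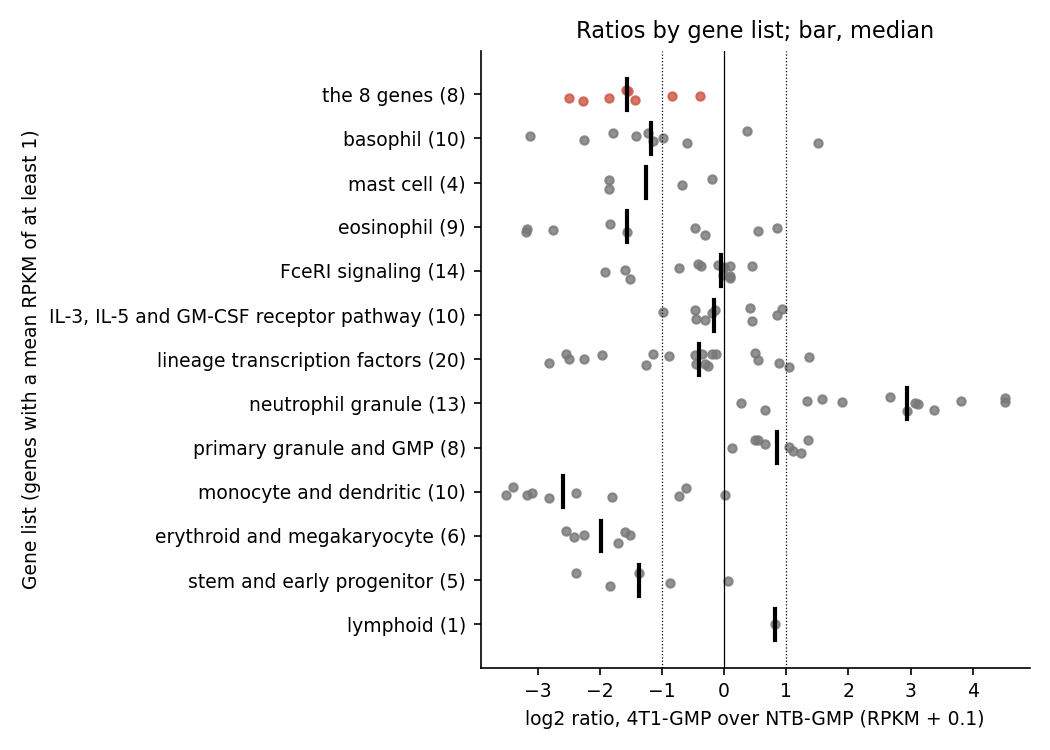
Log2 ratio of 4T1-GMP over NTB-GMP (RPKM + 0.1) for each expressed gene, by list, with the number of genes in parentheses, a black bar at the median and dotted lines at 2-fold. The 8 genes (red, median -1.56) lie to the left of 0 with the basophil (-1.18), mast cell (-1.26) and eosinophil (-1.56) lists, whereas the neutrophil granule list (2.94) lies to the right and FcεRI signaling (-0.06) is centered near 0. The medians of the monocyte and dendritic (-2.60), erythroid and megakaryocyte (-1.98) and stem and early progenitor (-1.37) lists are also left of 0.

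Genes of other cell types in or near the GMP gate also differed between the libraries. All 13 neutrophil granule genes were higher, 11 of them at least 2-fold, with a median log2 ratio of 2.94, and their summed level was 539 RPKM in NTB-GMP against 4090 RPKM in 4T1-GMP. S100a8 and S100a9 made up 397 and 3569 RPKM of these sums, and 3 of the 11 genes (Ly6g, Mmp8 and Mmp9) reached the minimum through 4T1-GMP alone. The largest ratios were those of the proteases Mmp9 (4.52) and Mmp8 (4.51) and of Retnlg (3.81), and the smallest those of Ltb4r1 (0.27), Chil3 (0.66) and Camp (1.33). Over the 8 primary granule and GMP genes, 4 were at least 2-fold higher and the median was 0.86, from 0.12 for Mpo, 0.49 for Calr and 0.54 for Cebpe to 1.11 for Ctsg, 1.24 for Prtn3 and 1.35 for Ms4a3, with summed levels of 12011 and 18629 RPKM. Of the 10 expressed monocyte and dendritic genes, 7 were at least 2-fold lower, with a median of -2.60 and a summed level over the list of 225 and 85.5 RPKM. Ly86 and Cx3cr1, 2 of the 7, reached the minimum through NTB-GMP alone. The antigen presentation genes H2-Aa (-3.52) and H2-Ab1 (-3.40) and Ly86 (-3.18) were the lowest, while F13a1 (0.02), Csf1r (-0.62) and Ccr2 (-0.73) differed by less than 2-fold. The summed level of the erythroid and megakaryocyte list was 40.3 and 10.8 RPKM. Of its 6 expressed genes, Zfpm1, Klf1 (-2.42), Gata1 and Gp9 (-1.60) reached the minimum through NTB-GMP alone, so their direction was set by it. The other 2, Itga2b (-1.51) and Car2 (-1.71), were also at least 2-fold lower, and the median of the 6 was -1.98. The globin genes Hba-a1, Hbb-bs and Hbb-bt were listed at 0. Of 5 expressed stem and early progenitor genes, 3 were at least 2-fold lower, namely Flt3 (-2.38), Meis1 (-1.83) and Cd34 (-1.37), beside Hlf (-0.88) and Hoxa9 (0.06), with a median of -1.37 and a summed level over the list of 199 and 79.98 RPKM. Whether these differences have a part in the values of the 8 genes was not tested.

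Several of the 8 genes lie beside related genes, which were compared with them by taking the 3 nearest protein-coding genes on either side that had a row in the files. Prg3, the gene next to Prg2 and the homolog of major basic protein in eosinophil granules, had 63.8 RPKM in NTB-GMP, from 616 reads, against 17.7 RPKM in 4T1-GMP, from 505 reads, a log2 ratio of -1.84. The next gene on the other side, Slc43a3, had 43.4 and 49.6 RPKM (0.20). Epx and Mpo, which encode related peroxidases of eosinophils and of neutrophils and monocytes, are separated by Lpo and Mks1. Mpo had a log2 ratio of 0.12 against -1.44 for Epx, so the ratio of Mpo to Epx was 32.3 in NTB-GMP and 95.2 in 4T1-GMP. Lpo, the lactoperoxidase gene between them, was listed at 0 in both libraries.

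Mcpt8 lies next to Ctsg, which encodes cathepsin G, a protease of primary granules. Ctsg had 1388 and 2998 RPKM (log2 ratio 1.11), in the opposite direction to Mcpt8 (-0.84), and the 3 neighbors on the other side, Mcpt4, Mcpt2 and Mcpt9, were at 0. Ms4a2 lies next to Ms4a3, a gene of GMPs, which had 479 and 1220 RPKM (1.35) against -1.86 for Ms4a2. The ratio of Ms4a3 to Ms4a2 was 10.01 in NTB-GMP and 92.8 in 4T1-GMP. Over the 48 neighbors of the 8 genes, 22 were expressed, of which 3 were at least 2-fold lower and 4 at least 2-fold higher, with a median log2 ratio of 0.14. The shares over all expressed genes were 4.92% lower and 3.25% higher. The 3 lower neighbors were Prg3, Ms4a6b (-1.07) and H1fx (-2.20), the last 2 named after their values were seen. H1fx (4.25 and 0.847 RPKM) reached the minimum through NTB-GMP alone. Among the higher neighbors, Ms4a6d (0.645 and 2.72 RPKM) and Oosp1 (0.563 and 1.76 RPKM) reached it through 4T1-GMP alone. The direction of these neighbors was thus set by the minimum.

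**Figure D5:**
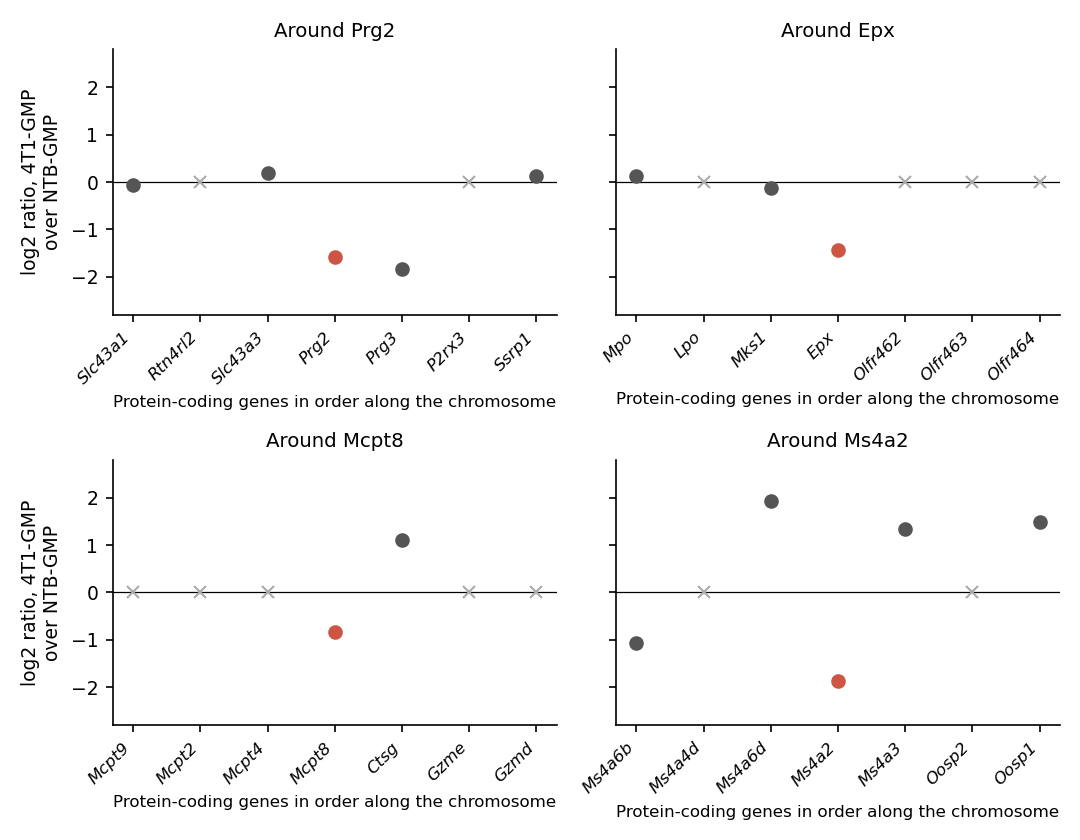
Log2 ratio of 4T1-GMP over NTB-GMP for Prg2, Epx, Mcpt8 and Ms4a2 (red) and the 3 protein-coding genes on either side (gray), in order along the chromosome, where a cross marks a gene with a mean RPKM under 1, drawn at 0. Prg2 and Prg3 lie together below 0, whereas Epx and Mpo, Mcpt8 and Ctsg, and Ms4a2 and Ms4a3 lie apart.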

How the data were processed

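GMPs from NTB mice and from 4T1-bearing mice were profiled by bulk RNA-seq, with 1 library per group. The authors deposited RPKM, 1 value per gene symbol and library. The submitters' processing notes name mm10, CASAVA 1.8.2, cutadapt 1.2.1, TopHat2 2.0.13, Picard 1.97, HTSeq 0.6.1 and edgeR 3.12.1, without roles. The gene lengths are not given in the sources used here.

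The 8 genes and all lists were chosen with earlier results of these data known. The ratio of the 2 RPKM of a gene is a ratio of whole reads times 1 constant, and gene lengths are whole. On this basis reads were recovered for all 14833 symbols with a value above 0 (relative tolerance 1e-12). The multiple whose gene length was nearest to the RefSeq-linked exons of GENCODE M21 was taken; the length came within 10% for 82.0% of 14097 genes. Reads and their intervals depend on this choice, while ratios do not. The library sizes behind the RPKM were 10180365.24 for NTB-GMP and 30016262.8 for 4T1-GMP. They are not whole, so they differ from plain read totals, and fold differences rest on them. The procedure was also run on reads simulated on the recovered gene lengths. Both counts came back exactly for 97.8% of 14461 genes. Because these lengths came from the same choice of multiple, this run cannot show whether that choice was right.

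Ratios used a pseudocount of 0.1, a minimum mean RPKM of 1 and a size of 2-fold. The genes named were the 8 genes, the 3 highest and 3 lowest ratios of each list, Kit, Gata1, Fcer1g, Csf2rb, Il3ra and Cebpe, and the neighbors Mpo, Lpo and Prg3. Others given as examples (Elane, Cd79a, Pax5, Cd3e, Cd3g, Prss34, Hdc, Cd200r3, Itga2, Siglecf, Ccr3, Ear6, Syk, Csf2ra, Cx3cr1, Ly6g, S100a8, S100a9, further neighbors and genes at 0) were named after their values were seen. The lymphoid list had 1 gene with a mean RPKM of at least 1, Nkg7 (190 and 337 RPKM), which is also expressed outside lymphoid cells. Alternatives were other pseudocounts, minimums, sizes and scalings, the last of these partly chosen after seeing the data (totals of recovered reads). Computations used Python 3.11.15, numpy 2.4.6, pandas 2.3.3 and scipy 1.17.1. One gene of the lymphoid list is not reported here.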

Additional observations from a re-analysis of the deposited data

How the results depend on the processing

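Of 48 values of the 8 genes under 6 alternatives each, 35 stayed within the counting interval, 13 moved beyond it and 0 changed direction. Library sizes without Rn45s gave -1.73 for Prg2, -1.58 for Epx, -1.69 for Cpa3, -0.98 for Mcpt8, -2.00 for Ms4a2 and -1.71 for the median of the 8 genes, which follows from the common shift of -0.15. Quantile normalization gave -1.77 for Prg2, -1.67 for Epx, -1.73 for Cpa3, -1.10 for Mcpt8, past 2-fold, and -1.75 for the median, and the cause was not tested. A pseudocount of 1 gave -2.31 for Gata2, -1.12 for Il5ra and -1.47 for the median, since it weighs most on low values. Centering on the median gene gave -1.64 for Prg2. Totals of the recovered reads, chosen after seeing the data, gave -1.53 for Prg2 and -1.49 for the median of 7 genes, as Il5ra then had a mean RPKM under 1.

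At 4-fold, 2 of the 8 genes were lower (Gata2 and Il5ra), against 125 lower (1.2%) and 97 higher (0.935%) of the 10378 expressed genes. Il5ra reached the minimum through NTB-GMP alone. The basophil list then held 2 of 10 lower and 0 higher, and the lineage factors 4 of 20 lower and 0 higher. In the other lists, 0 of 4 (mast cell), 3 of 9 (eosinophil) and 0 of 14 (FcεRI signaling) were lower. Among these, the eosinophil gene Ear10 and the lineage factors Gata1 and Zfpm1 also reached the minimum through NTB-GMP alone. At 1.5-fold, 1209 of the expressed genes were lower (11.6%) and 1017 higher (9.8%). The cytokine receptor pathway then held 1 lower and 2 higher, and the eosinophil list 1 higher. At 2-fold with a minimum mean RPKM of 5, 181 of 7982 genes were lower (2.27%) and 170 higher (2.13%). No minimum gave 1246 of 14833 genes lower (8.4%) and 734 higher (4.95%). With a pseudocount of 1, 299 of 10378 were lower (2.88%). The minimum of 5 kept 7 of the 8 genes, of which 5 were at least 2-fold lower. It kept 1 mast cell gene, which was not at least 2-fold lower, and 12 FcεRI signaling genes, of which 1 was. No minimum gave 2 of 14 basophil genes higher, Ifitm1 and Cd200r3. Without Rn45s, and after centering, 1 receptor pathway gene was lower and 1 lineage factor higher; a pseudocount of 1 also left 1 lineage factor higher. Depth limits Il5ra most, with 66 and 32 reads. No paired analysis was possible because there was a single library on either side, which also left no replicate to omit.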
